A study of Mus musculus with 10 samples.

Results

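The genes for the chains of the collagens were followed in cultured fibroblasts of mouse lung. All genes whose symbol is Col, a number, a and a number were taken, and 42 of the 18193 genes measured by the arrays met this rule. They fall into 11 fibrillar chains, 6 chains of the basement membrane network, 5 chains of the beaded filament, 9 FACIT chains (fibril-associated collagens with interrupted helices) and 11 others, which are transmembrane, multiplexin, short-chain and anchoring collagens with Col26a1. Col6a6 and Col28a1 were not analysed here. The cells were normal lung fibroblasts (n = 5) and carcinoma-associated fibroblasts, CAF (n = 5), with 1 Affymetrix array for each culture. Both kinds of cell were taken from mouse lungs, expanded in DMEM with 10% serum for 10 to 14 days, replated and harvested after a night, and RNA of 6 ug was labelled. The labels used here give no strain, age, tumour model or number of animals for either group, and they call the cultures biological replicates. Sample codes of normal replicates 1 to 3 begin with vs, and those of normal replicates 4 and 5 and of every CAF replicate begin with ls, a prefix whose meaning is not stated.

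Collagens are the main structural proteins of connective tissue, and fibroblasts are their main source in the lung. Chains join in trimers inside the endoplasmic reticulum, some of a single gene's product and some of the products of several genes, and the trimers are trimmed and cross-linked outside the cell. Fibrillar collagens form the load-bearing fibrils, FACIT chains sit on the surface of those fibrils, type IV chains form the sheet of the basement membrane, and type VI chains form microfilaments close to cells.

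Some partner chains lie side by side in the genome, and the sequences around the starts of chains whose levels moved together are shown first. Positions and sequences are from RefSeq on GRCm38.p6, and each sequence is written 5′ to 3′ on its gene's strand and ends at the base before the start. Capitals mark 3 motifs that were searched on both strands, with no overlap among the matches shown. One is the CCAAT box, which reads ATTGG from the other strand. Another is the GC box, whose letters are GGGCGG on one strand and, on the opposite strand, CCGCCC. The last is the TATA box, searched with the letters TATAAA and with their reverse complement TTTATA. The stretch of Col1a2, the alpha 2 chain of type I collagen, is chr6:4505368-4505617 on the plus strand. It holds 1 CCAAT 109 bases before the start and 2 GC boxes.
Col1a2: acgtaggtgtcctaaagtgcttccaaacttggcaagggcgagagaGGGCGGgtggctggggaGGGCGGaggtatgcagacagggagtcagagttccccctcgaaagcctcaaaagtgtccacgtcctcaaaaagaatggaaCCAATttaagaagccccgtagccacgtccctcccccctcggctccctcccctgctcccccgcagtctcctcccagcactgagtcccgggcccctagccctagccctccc
Col6a1 and Col6a2, 2 chains of type VI collagen, are neighbours on chromosome 10 with no protein-coding gene between them. The stretches are chr10:76726045-76726294 for Col6a1 and, for the most upstream of 2 starts, chr10:76623631-76623880 for Col6a2, both on the minus strand. Col6a1 has none of the 3 motifs in this window and Col6a2 has 1 GC box, on the other strand.
Col6a1: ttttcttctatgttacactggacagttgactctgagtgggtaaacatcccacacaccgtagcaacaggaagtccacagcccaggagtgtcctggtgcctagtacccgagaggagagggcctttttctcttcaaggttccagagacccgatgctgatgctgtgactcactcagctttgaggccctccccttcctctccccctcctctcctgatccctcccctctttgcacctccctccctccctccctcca
Col6a2: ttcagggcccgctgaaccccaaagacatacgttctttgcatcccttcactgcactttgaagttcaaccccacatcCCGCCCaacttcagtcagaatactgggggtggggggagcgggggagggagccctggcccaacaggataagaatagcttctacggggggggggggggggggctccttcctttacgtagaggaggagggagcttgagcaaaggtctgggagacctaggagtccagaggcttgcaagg
Col4a1 and Col4a2, which form the common trimer of type IV collagen, are read in opposite directions from starts 21 bases apart on chromosome 8. Col4a2 is read on the plus strand from 11312805 and Col4a1 on the minus strand from 11312826, so the annotated transcripts overlap there. Capitals in the next line, chr8:11312801-11312830 on the plus strand, mark the 22 bases from the start of Col4a2 to that of Col4a1, both included. This stretch contains 1 GC box and, unlike the other stretches, lies within both transcripts and not before a start.
Col4a1 and Col4a2: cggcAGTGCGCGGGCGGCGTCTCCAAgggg
Of the 42 genes, 33 had a promoter sequence, with 36 windows in all. A GC box was in 58.3% of those windows of 250 bases. Its share was 32.7% in 32851 windows of 27025 RefSeq genes, a set not limited to genes measured by the arrays. CCAAT was in 36.1% and 33.8% of these 2 sets of windows, and TATAAA in 13.9% and 12.4%. These are descriptions of letters and show no bound factor.

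No collagen gene passed the test between the groups. The limma test with Benjamini-Hochberg adjustment over all 18193 genes called 0 of the 42 at an adjusted p under 0.05, where it called 0.753% of all genes, and the lowest adjusted p of a collagen gene was 0.0540. With the mean of all probe sets of a gene, 1 collagen gene was called lower (Col2a1), beside 0.275% of all genes. With array weights 3 were called lower (Col2a1, Col8a2 and Col9a1), beside 3.37% of all genes called lower. At an unadjusted p under 0.05 there were 10 collagen genes, all with the lower mean in CAF (23.8%), against 11.8% of all genes with a lower and 10.5% with a higher mean. With each array centred on its median, 11 collagen genes were at that p, all lower, against 18.8% lower and 6.83% higher over all genes. The mean was lower in CAF for 30 collagen genes and higher for 12, with a median difference of -0.09 on the log2 scale, beside -0.04 over all genes. All differences below are CAF minus normal log2 values with the standard error (SE) of the limma fit. In cultures measured as bulk RNA, fewer cells of a type and less RNA per cell cannot be told apart.

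How bright a probe set was went along with the sign, so the 42 genes were also split at the median level of all genes, a log2 value of 8.11, a split chosen after the values were seen. The 21 brighter collagen genes had a median difference of -0.22, and 14 of them (66.7%) had the lower mean in CAF. Over all brighter genes the median difference was 0.08 and 39.4% were lower in CAF. At an unadjusted p under 0.05, 4 of the brighter collagen genes were lower (19.0%), against 4.95% of all brighter genes. The 21 dimmer collagen genes had a median difference of -0.05, with 16 of 21 lower in CAF (76.2%), against -0.09 and 75.1% for all dimmer genes. Levels of different genes come from different probe sets and are not compared with each other.

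**Figure D1:**
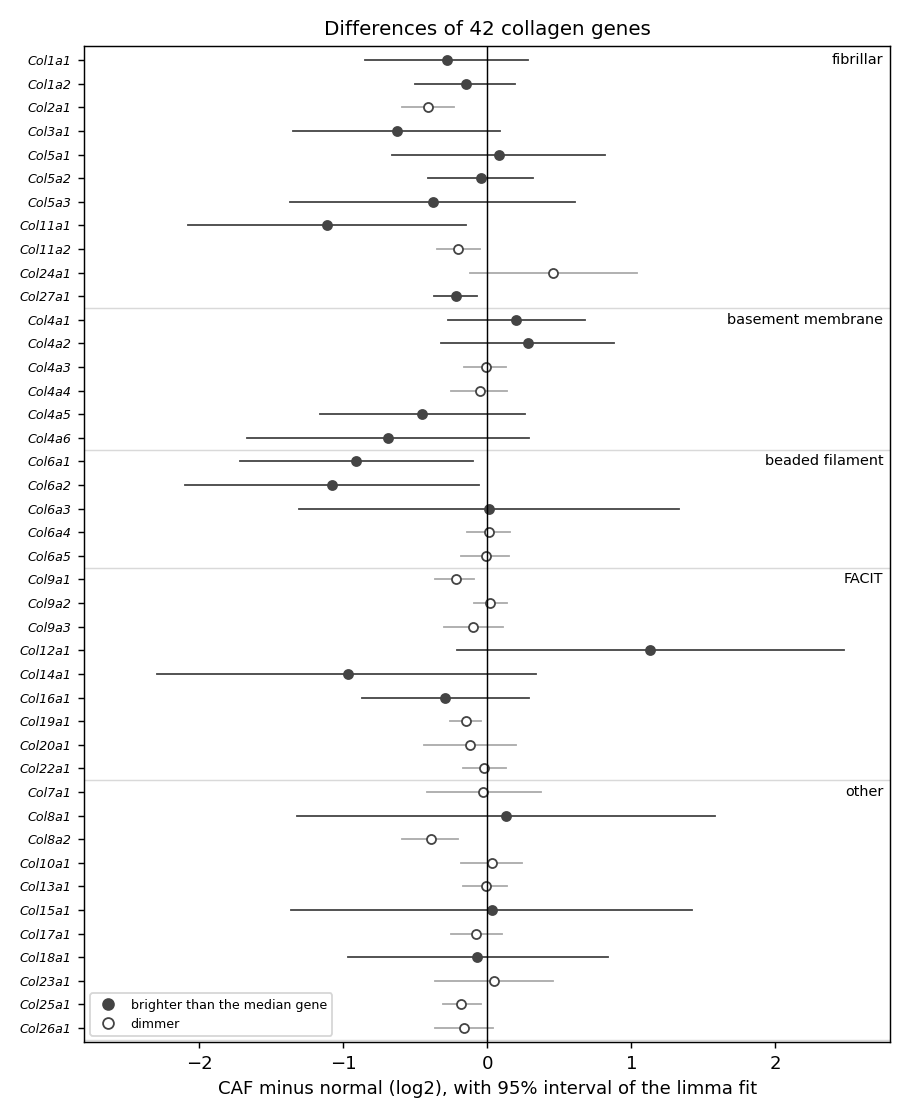
Difference of each of the 42 collagen genes between CAF and normal fibroblasts (log2, x axis) with the 95% interval of the limma fit, grouped by class; filled points are the 21 genes brighter than the median gene and open points the 21 dimmer ones. The intervals of the brighter genes are mostly the wider ones, and Col11a1 at -1.11 and Col12a1 at 1.13 are the points farthest from 0.

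The fibrillar class had a median difference of -0.22, and 9 of its 11 chains had the lower mean in CAF. Its best known members, the chains of type I and type III collagen, gave overlapping values. Col1a1, the alpha 1 chain of type I collagen, read 14.89, 15.31, 14.32, 14.84 and 14.92 on normal replicates 1 to 5 and 14.95, 15.03, 14.05, 14.83 and 14.00 on CAF replicates 1 to 5. CAF replicates 3 and 5 lay under every normal array and the other CAF arrays among them, with a difference of -0.28 ± 0.25 (adjusted p = 0.529). Col1a2, its partner chain, read 15.24, 15.44, 14.86, 15.12 and 15.22 in normal cells and 15.29, 15.25, 14.81, 15.16 and 14.61 in CAF. The same CAF arrays were the lowest, and the difference was -0.15 ± 0.15 (adjusted p = 0.581). Dimmer probe sets of both genes gave larger differences, -0.63 ± 0.18 for Col1a1 (adjusted p = 0.0901 in a limma fit over all probe sets) and -0.47 ± 0.26 and -0.54 ± 0.46 for Col1a2.

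Col3a1, the single chain of type III collagen and a companion of type I in lung fibrils, read 15.21, 15.40, 14.27, 14.65 and 14.75 in normal cells. In CAF it read 14.82, 14.23, 13.39, 14.87 and 13.81. CAF replicates 2, 3 and 5 were below all normal arrays, CAF replicates 1 and 4 were not, and the difference was -0.63 ± 0.32 (95% interval -1.35 to 0.09, adjusted p = 0.276). Its dimmer probe set gave -1.59 ± 0.56 (adjusted p = 0.142 over all probe sets).

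Type V collagen is a minor fibrillar collagen that helps to start fibrils and sets their width. Its chain Col5a1 read 12.28, 13.53, 11.64, 12.50 and 12.81 in normal cells and 12.80, 12.74, 12.74, 12.99 and 11.90 in CAF. Col5a2 read 14.92, 15.18, 14.31, 14.60 and 14.91 against 14.71, 14.84, 14.88, 14.87 and 14.40. In both genes the CAF arrays lay within the range of the normal arrays, with differences of 0.08 ± 0.33 (95% interval -0.66 to 0.82) and -0.04 ± 0.16 (-0.41 to 0.32). The sign was not stable: quantile normalisation gave 0.01 for Col5a2, and taking the mean of all probe sets gave -0.18 for Col5a1. A dimmer probe set of Col5a2 gave -0.84 ± 0.25 (adjusted p = 0.100 over all probe sets), so its probe sets differ. Col5a3, the less common chain of this type, read 7.58, 7.91, 8.42, 9.85 and 9.01 in normal cells and 8.43, 8.81, 8.05, 8.38 and 7.20 in CAF. Its normal replicates 4 and 5, with the prefix ls, were above every CAF array. The difference of -0.38 ± 0.44 was -1.26 against the ls normal arrays and 0.20 against the vs normal arrays.

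Col11a1, a chain of type XI collagen, which forms the core of thin fibrils and is often followed in tumour stroma, had the most negative difference of the 42 genes. It read 10.84, 11.19, 10.49, 11.23 and 12.09 in normal cells and 10.10, 11.54, 9.44, 9.40 and 9.80 in CAF. CAF replicates 1, 3, 4 and 5 were below all normal arrays and CAF replicate 2 was above 4 of them. The mean was 11.17 ± 0.60 (SD, n = 5) in normal cells and 10.05 ± 0.88 (SD, n = 5) in CAF, 2.16-fold apart, with a difference of -1.11 ± 0.43 (95% interval -2.08 to -0.15). That missed the threshold (limma p = 0.028, adjusted p = 0.174), and the exact 2-sided permutation test gave p = 0.0556. A second probe set gave -1.07 ± 0.42. The difference was -1.61 against the ls normal arrays and -0.79 against the vs ones. With 1 array left out in turn it ran from -1.48 to -0.88. The value without CAF replicate 2 was -1.48 ± 0.30 (adjusted p = 0.0597 in the limma fit without that array).

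The cartilage chain Col2a1 had the smallest p of the 42 genes. It read 7.78, 7.91, 7.56, 7.82 and 7.82 in normal cells and 7.50, 7.45, 7.22, 7.32 and 7.37 in CAF, with no overlap. The difference was small, -0.41 ± 0.08 (95% interval -0.59 to -0.23, adjusted p = 0.0540). Col2a1 has a single probe set, so its difference and SE were the same when each gene was read from the mean of its probe sets, and its adjusted p was then 0.0483. With array weights the adjusted p was 0.0247. Its level was under that of the median gene, and none of 10 cartilage markers was brighter than the median gene, with list means of 6.15 to 6.33 in normal cells and 6.03 to 6.12 in CAF.

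The remaining fibrillar chains had small differences or dim values. Col27a1, a fibrillar chain of cartilage and other tissues, read 8.91, 8.76, 8.74, 8.68 and 8.76 in normal cells and 8.44, 8.49, 8.67, 8.54 and 8.61 in CAF. The groups did not overlap, though the gap between the closest arrays was small, and the difference was -0.22 ± 0.07 (adjusted p = 0.113) against -0.01 ± 0.09 from a dimmer probe set. Col11a2, another type XI chain, read 6.68, 6.76, 6.72, 6.67 and 6.53 against 6.48, 6.34, 6.54, 6.40 and 6.57 (-0.20 ± 0.07, adjusted p = 0.134). Only CAF replicates 3 and 5 were as high as the lowest normal array. Col24a1 read 4.74, 5.22, 5.11, 5.10 and 4.75 in normal cells and 6.33, 4.92, 4.87, 5.56 and 5.52 in CAF. It was dim on all arrays, CAF replicates 1, 4 and 5 were above every normal array, and its difference was 0.46 ± 0.26 (adjusted p = 0.325).

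**Figure D2:**
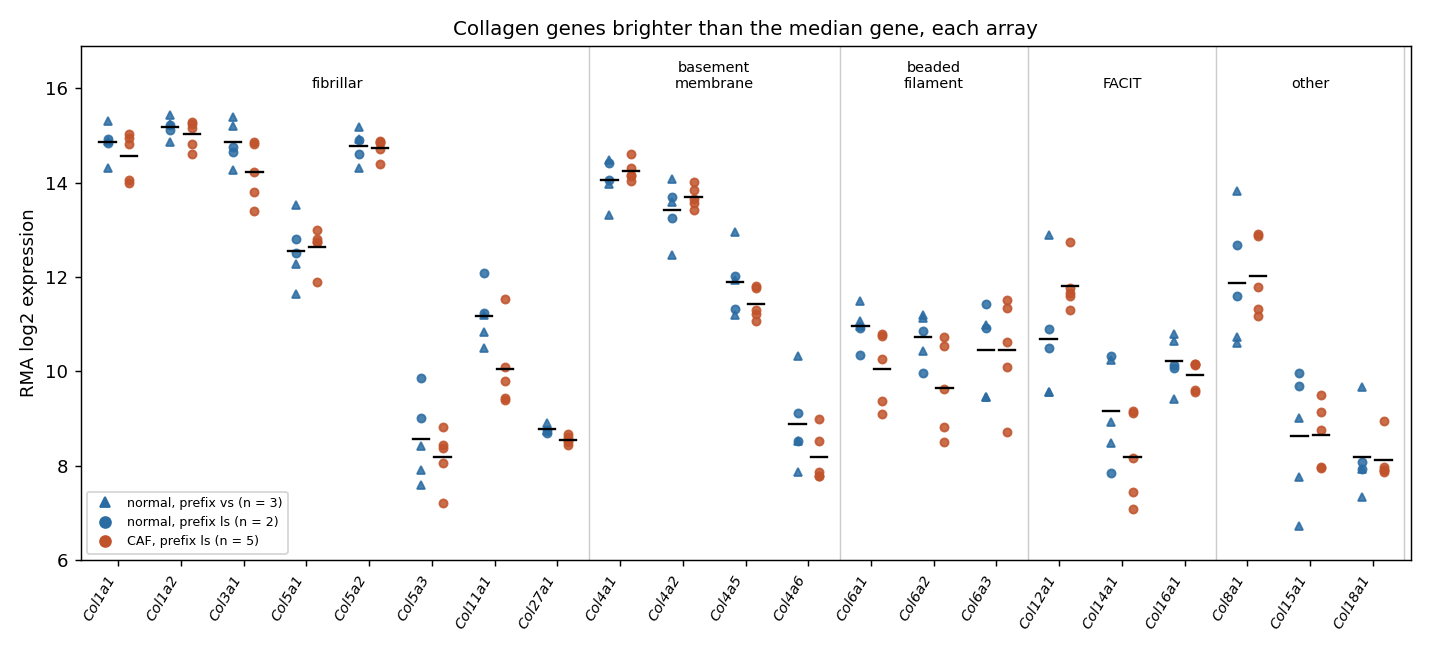
RMA log2 expression (y axis) of the 21 collagen genes brighter than the median gene on each of the 10 arrays, by class; triangles are normal arrays with prefix vs, circles arrays with prefix ls, blue normal and orange CAF, and black bars group means. Groups overlap in every gene but Col27a1, and the spread within a group is wide in Col12a1, Col8a1 and Col15a1.

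Basement membrane chains did not pass the test, and none was at an unadjusted p under 0.05. Col4a1 and Col4a2 were the only ones of the class with a higher mean in CAF. Col4a1 read 14.48, 13.98, 13.31, 14.05 and 14.41 in normal cells and 14.16, 14.60, 14.14, 14.31 and 14.04 in CAF, a difference of 0.20 ± 0.21 (95% interval -0.27 to 0.68, adjusted p = 0.600). Col4a2 read 14.08, 13.60, 12.47, 13.24 and 13.70 against 13.57, 14.01, 13.65, 13.85 and 13.41, a difference of 0.28 ± 0.27 (-0.32 to 0.88, adjusted p = 0.562). In both genes normal replicate 3 was the lowest array of all and the CAF arrays lay close together. Without normal replicate 3 the differences were 0.02 for Col4a1 and 0.04 for Col4a2. The SD was 0.47 in normal cells and 0.22 in CAF for Col4a1, and 0.61 and 0.24 for Col4a2.

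Col4a5 and Col4a6, chains of a type IV network known from kidney and smooth muscle, are neighbours on the X chromosome. Col4a5 read 12.96, 11.93, 11.20, 11.32 and 12.01 in normal cells and 11.21, 11.77, 11.07, 11.81 and 11.29 in CAF. Col4a6 read 10.32, 7.86, 8.53, 8.53 and 9.12 against 7.77, 8.98, 7.77, 7.86 and 8.53. Normal replicate 1 was the highest array for both, and the remaining normal arrays overlapped with CAF. The differences were -0.45 ± 0.32 (adjusted p = 0.421) and -0.69 ± 0.44 (adjusted p = 0.373), and without normal replicate 1 they were -0.18 for Col4a5 and -0.33 for Col4a6. Normal replicate 1 also had the highest mean of the mesothelial markers, 10.15, against 6.11 to 9.97 on the other normal arrays, and the part of this in the values of Col4a5 and Col4a6 was not tested. Col4a3 and Col4a4, known from kidney and lung basement membranes, were dim, with differences of -0.01 ± 0.06 and -0.05 ± 0.09.

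Of the 5 type VI chains, Col6a1 and Col6a2 had a lower mean in CAF at an unadjusted p under 0.05, where 11.8% of all genes did, and both are needed for the common type VI trimer. Col6a1 read 10.97, 11.49, 11.06, 10.91 and 10.34 in normal cells and 10.79, 10.25, 9.09, 10.74 and 9.36 in CAF. Col6a2 read 10.43, 11.20, 11.14, 10.86 and 9.97 against 10.54, 9.63, 8.50, 10.73 and 8.81. In both genes CAF replicates 2, 3 and 5 were below every normal array, and CAF replicates 1 and 4 lay among the normal arrays. The mean of Col6a1 was 10.95 ± 0.41 (SD, n = 5) in normal cells and 10.05 ± 0.78 (SD, n = 5) in CAF, a difference of -0.91 ± 0.36 or 1.88-fold (95% interval -1.72 to -0.10). For Col6a2 the means were 10.72 ± 0.52 and 9.64 ± 1.00, with a difference of -1.08 ± 0.46 or 2.11-fold (-2.10 to -0.06). Neither passed the limma test over all genes, with adjusted p = 0.182 and 0.204 (unadjusted 0.0314 and 0.0408). The differences kept their sign against the ls normal arrays (-0.58 and -0.77) and against the vs normal arrays (-1.13 and -1.28).

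Col6a3, the chain that completes the type VI trimer, did not share that pattern. It read 9.45, 10.99, 9.45, 11.43 and 10.92 in normal cells and 10.62, 11.34, 8.72, 11.51 and 10.10 in CAF. Normal replicates 1 and 3 were low together with CAF replicate 3, and the groups overlapped almost fully. The difference was 0.01 ± 0.59 (95% interval -1.31 to 1.33), and its sign turned with the scaling, to -0.09 after quantile normalisation and -0.06 after median centring. It was -0.71 against the ls normal arrays and 0.49 against the vs normal arrays. Col6a4 and Col6a5, later-described type VI chains, were dim, with differences of 0.01 ± 0.07 and -0.01 ± 0.07. A dimmer probe set of Col6a4 gave -0.19 ± 0.06 (adjusted p = 0.124 in the limma fit over all probe sets).

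Among the FACIT chains, Col12a1 was the one collagen gene with a mean more than 2-fold higher in CAF. Its product, type XII collagen, lies on type I fibrils of tissues under load. It read 9.55, 12.89, 9.55, 10.90 and 10.50 in normal cells and 11.65, 11.59, 11.76, 12.75 and 11.29 in CAF. Every CAF array was above 4 of the 5 normal arrays, and normal replicate 2 was above all CAF arrays. The means were 10.68 ± 1.37 (SD, n = 5) and 11.81 ± 0.56 (SD, n = 5), 2.20-fold apart, a difference of 1.13 ± 0.60 (95% interval -0.21 to 2.48) that did not pass the limma test (adjusted p = 0.295, unadjusted 0.0894). Another probe set of Col12a1 gave 1.21 ± 0.67, the remaining 2, which were dim, gave 0.09 and -0.08, and the mean of all 4 gave 0.59. The difference was 1.11 against the ls normal arrays and 1.15 against the vs ones. With 1 array left out in turn it ran from 0.85 to 1.69. The value without normal replicate 2 was 1.69 ± 0.37 (adjusted p = 0.0637 in the limma fit without that array). Col11a1, Col6a2 and Col12a1 were the 3 collagen genes with means 2-fold or more apart, beside 2.2% of all genes.

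Col14a1, the chain of a FACIT collagen on type I fibrils, read 8.92, 10.24, 8.47, 7.85 and 10.33 in normal cells and 9.11, 9.16, 7.08, 8.16 and 7.43 in CAF. CAF replicates 3 and 5 were lowest and normal replicates 2 and 5 highest, with a difference of -0.97 ± 0.59 (95% interval -2.29 to 0.34, adjusted p = 0.352). Dimmer probe sets of Col14a1 gave smaller differences, -0.55 ± 0.51 and -0.45 ± 0.33. Col16a1, a FACIT chain of interstitial tissue, read 10.65, 10.80, 9.42, 10.06 and 10.14 against 10.16, 10.14, 9.56, 10.15 and 9.60. Its normal range enclosed every CAF array (-0.29 ± 0.26, adjusted p = 0.530).

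Dim FACIT chains with the smallest p were Col9a1, a cartilage chain, and Col19a1. Col9a1 read 8.12, 8.07, 7.99, 8.02 and 8.14 in normal cells and 7.80, 7.87, 7.89, 7.92 and 7.74 in CAF (-0.22 ± 0.06, adjusted p = 0.0860). Col19a1 read 5.87, 5.93, 5.83, 5.89 and 5.91 against 5.72, 5.71, 5.73, 5.76 and 5.79 (-0.15 ± 0.05, adjusted p = 0.127). Neither gene's groups overlapped, but the steps between them were small, and the probe set of Col19a1 with the highest SD gave 0.14. A dimmer probe set of Col9a1 gave -0.15 ± 0.09. Col9a3, another cartilage chain, read 7.32, 7.25, 7.14, 7.44 and 7.29 against 7.33, 7.18, 7.40, 7.01 and 7.04, with overlapping groups and a difference of -0.10 ± 0.09. The other FACIT chains, Col9a2, Col20a1 and Col22a1, had differences between -0.12 and 0.02. Dimmer probe sets of Col20a1 gave -0.20, 0.01 and -0.34 ± 0.15, the last with an adjusted p of 0.21 in the limma fit over all probe sets.

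In the remaining class, Col8a1, a short-chain collagen of vessel walls and Descemet's membrane, read 10.72, 13.82, 10.59, 11.59 and 12.68 in normal cells. In CAF it read 12.86, 11.78, 11.33, 12.91 and 11.17. The normal arrays spanned 9.42-fold and enclosed all CAF arrays, and the difference was 0.13 ± 0.65 (95% interval -1.32 to 1.58). Col8a2, its partner, read 5.51, 5.11, 5.33, 5.40 and 5.11 against 4.91, 4.96, 4.89, 4.91 and 4.82. Those values were dim and did not overlap (-0.39 ± 0.09, adjusted p = 0.0635, or 0.0313 with array weights).

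Col15a1 and Col18a1 are the multiplexins, which sit at basement membranes and release anti-angiogenic fragments. Col15a1 read 9.00, 7.75, 6.72, 9.68 and 9.97 in normal cells and 9.13, 7.95, 8.75, 9.50 and 7.96 in CAF. Col18a1 read 7.92, 9.66, 7.34, 8.08 and 7.92 against 7.97, 7.90, 7.91, 8.95 and 7.86. Normal arrays enclosed all CAF arrays in both genes, with differences of 0.03 ± 0.62 (95% interval -1.36 to 1.42) and -0.07 ± 0.40 (-0.97 to 0.84). For Col15a1 the normal arrays parted by prefix, giving -1.17 with the ls ones alone and 0.83 with the vs ones alone, and quantile normalisation and median centring gave -0.06 and -0.03. Col18a1 turned to 0.10 with the mean of its probe sets.

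The other chains of this class were dim and had small differences. Col25a1, a transmembrane collagen of neurons, read 7.45, 7.59, 7.35, 7.43 and 7.56 in normal cells and 7.27, 7.32, 7.28, 7.30 and 7.32 in CAF, without overlap (-0.18 ± 0.06, adjusted p = 0.135, and 0.00 ± 0.09 from its other probe set). Col26a1 read 5.51, 5.39, 5.50, 5.20 and 5.30 against 5.22, 5.01, 5.26, 5.19 and 5.42 (-0.16 ± 0.09). Col17a1, the hemidesmosome collagen of epithelium, read 5.07, 5.13, 5.05, 5.27 and 5.12 against 4.98, 5.26, 4.93, 5.11 and 4.97 (-0.08 ± 0.08). The last 2 overlapped between groups. The anchoring fibril chain Col7a1 gave -0.03 ± 0.18, and Col10a1, Col13a1 and Col23a1 had differences between -0.01 and 0.05. Dimmer probe sets of Col23a1 gave 0.10 ± 0.08 and 0.24 ± 0.08, the last with an adjusted p of 0.143 in the limma fit over all probe sets.

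In all, 6 collagen genes had CAF values that were all below the normal values, namely Col2a1, Col8a2, Col9a1, Col19a1, Col25a1 and Col27a1 (14.3%, against 4.19% of all genes), and none had the opposite (2.97% of all genes). Of these, 5 were dimmer than the median gene, 23.8% of the dimmer collagen genes against 6.66% of all dimmer genes. The brighter one was Col27a1, 4.76% against 1.72%. Dim genes as a whole had lower values on CAF arrays, with a median difference of -0.12 for genes between 6 and 8 and -0.07 for genes under 6. Col8a2 and Col19a1 are under 6, and Col2a1, Col9a1 and Col25a1 lie between 6 and 8. The array medians over all probe sets did not overlap either, with 6.76 to 6.79 in normal cells and 6.73 to 6.74 in CAF, and the part of this in the differences of the dim collagen genes was not tested.

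Chains that join in a trimer were also compared over the 10 arrays, in 12 pairs of partners or closest relatives, with permutation p-values from 100000 resamples, adjusted over the 12 pairs. The chains of a pair share arrays, and the p-values treat the cultures as independent. Col1a1 and Col1a2 followed each other at Pearson r = 0.98 (adjusted p = 0.00012) and Spearman rho = 0.96 (adjusted p = 0.0006), with r = 0.98 without the 2 arrays farthest from the median of Col1a1. Col6a1 and Col6a2 had r = 0.98 (adjusted p = 0.00012) and rho = 0.92 (adjusted p = 0.003), and r = 0.91 without 2 arrays. For Col4a1 and Col4a2 the values were r = 0.95 (adjusted p = 0.00072), rho = 0.87 (adjusted p = 0.00852) and r = 0.81. In each of these 3 pairs both chains had the other as the gene with the highest r among all 18192 other genes. As deviations from the group means, the r values were 0.98, 0.96 and 0.95, and over the 7 ls arrays they were 0.97, 0.99 and 0.89, while the 3 vs arrays are too few for a value. The genes of the type I pair lie on chromosomes 11 and 6, and those of the other 2 pairs are neighbours.

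**Figure D3:**
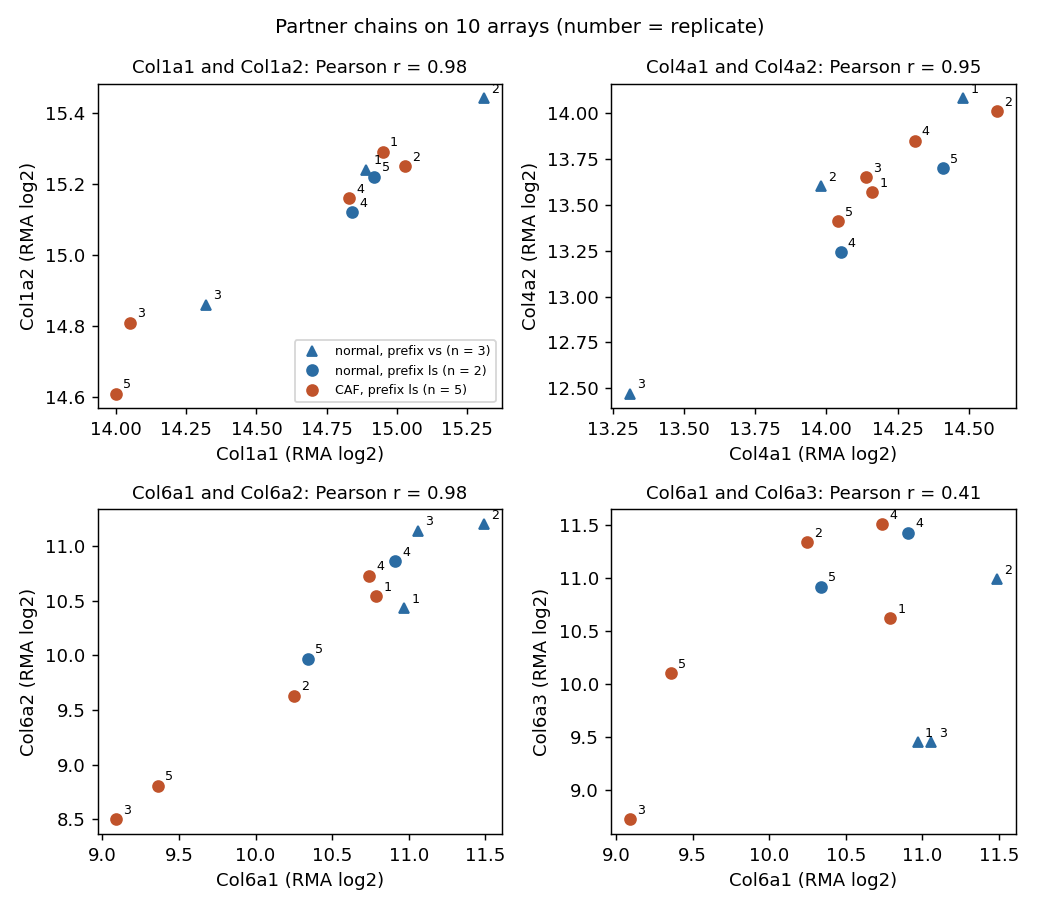
RMA log2 expression of 1 chain against another on the 10 arrays, with the replicate number beside each point, triangles for prefix vs, circles for prefix ls, blue for normal and orange for CAF. Points of Col1a1 and Col1a2, Col4a1 and Col4a2, and Col6a1 and Col6a2 lie close to a line (r = 0.98, 0.95 and 0.98), and those of Col6a1 and Col6a3 do not (r = 0.41).

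The alpha 3 chain of type VI collagen did not follow Col6a1 over all arrays. Col6a1 and Col6a3 had r = 0.41 and rho = 0.13 (adjusted p of r = 0.406), and r = -0.33 without 2 arrays. Over the 7 ls arrays r was 0.85 (adjusted p = 0.0338), and normal replicates 1 and 3, vs arrays, are those with low Col6a3 and high Col6a1. Col5a1 and Col5a2 had r = 0.89 (adjusted p = 0.003) but rho = 0.64 (adjusted p = 0.15), and r was 0.67 without 2 arrays (adjusted p = 0.243). Col1a1 and Col3a1, of different trimers in the same fibrils, had r = 0.86 (adjusted p = 0.00384), rho = 0.60 and 0.61 without 2 arrays (adjusted p = 0.264). Col4a5 and Col4a6 had r = 0.75 (adjusted p = 0.039), which rested on few arrays, since r was 0.18 without 2. The other 5 pairs did not pass, at r = 0.03 for Col4a3 and Col4a4, -0.38 for Col8a1 and Col8a2, 0.17 for Col11a1 and Col11a2, 0.11 for Col15a1 and Col18a1 and 0.02 for Col12a1 and Col14a1.

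The brighter collagen genes varied widely between cultures of a group. Their median SD was 0.61 in normal cells and 0.55 in CAF, where all brighter genes had 0.35 and 0.18. The normal group had the larger SD in 13 of the 21 collagen genes (61.9%) and in 84.6% of all brighter genes. In normal cells Col12a1 spanned 10.2-fold, Col15a1 9.53-fold and Col8a1 9.42-fold, and in CAF Col6a3 spanned 6.91-fold, Col6a2 4.69-fold and Col11a1 4.42-fold. With this spread, and for the 1 probe set used per gene, the 95% interval of the difference was inside 2-fold in 9 of the 21 brighter genes and wider in 12. Col1a1, Col1a2 and Col5a2 are among the 9, and dimmer probe sets of these genes gave larger differences.

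The same cultures tended to be low or high for many chains. Normal replicate 3 had the lowest normal value for 13 of the 21 brighter collagen genes (61.9%, against 24.4% of all brighter genes), and normal replicate 2 had the highest for 11 (52.4%, against 26.3%). In CAF, replicate 5 was lowest for 10 (47.6%, against 7.45%), replicate 3 for 8 (38.1%, against 22.6%), and replicate 4 was highest for 9 (42.9%, against 14.1%). The mean log2 value of the 21 genes was 11.40, 11.85, 10.78, 11.43 and 11.64 on the normal arrays and 11.38, 11.43, 10.73, 11.54 and 10.72 on the CAF arrays. Each group thus held low and high cultures, and the group means of 11.42 ± 0.40 and 11.16 ± 0.40 (SD, n = 5) differed by less than the SD.

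**Figure D4:**
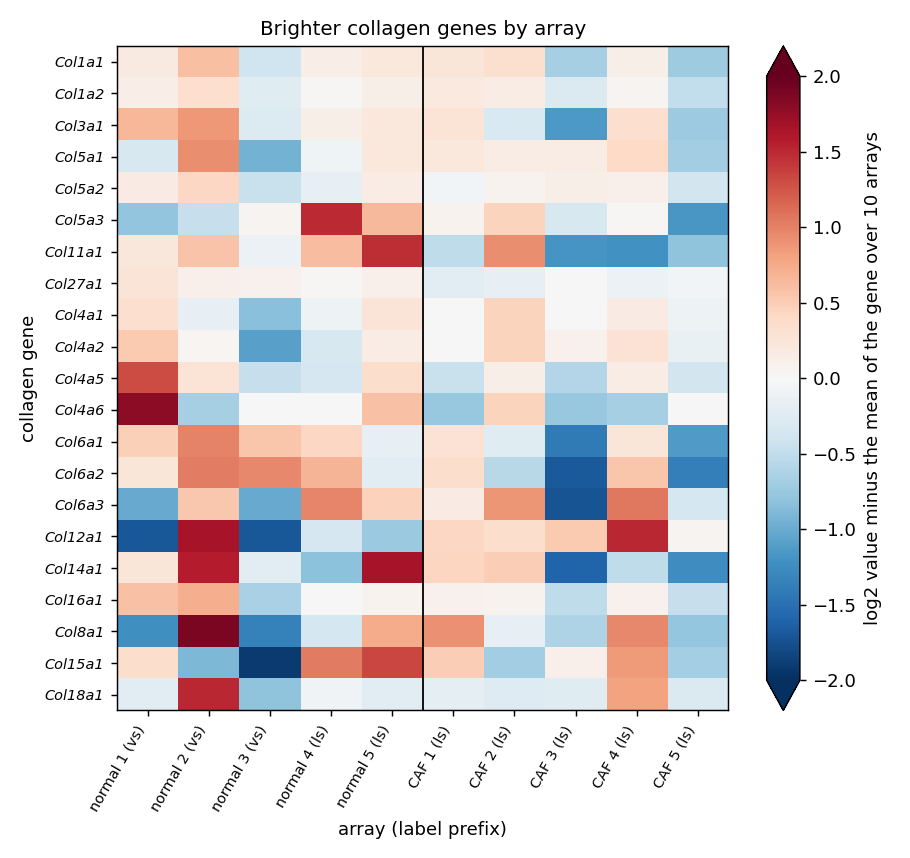
Log2 value of each of the 21 brighter collagen genes (rows) on each of the 10 arrays (columns, with the label prefix) minus the gene's mean over all arrays, as colour; red is above and blue below that mean, the scale ends at 2 either way, and the black line parts normal from CAF. Normal replicate 3 and CAF replicates 3 and 5, with means of 10.78, 10.73 and 10.72, are blue for most genes, and normal replicate 2, at 11.85, is red for most.

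Markers of fibroblasts and of other cells also varied between the cultures. Of 18 fibroblast markers 17 were brighter than the median gene, and their mean was 11.55, 12.85, 10.97, 11.88 and 11.74 on the normal arrays. On CAF replicates 1, 2, 3 and 5 it was 12.29, 11.34, 11.45 and 11.06, and replicate 4 lay between replicates 1 and 3. Normal replicate 3 and CAF replicate 5 were thus the lowest of their groups for fibroblast markers as well. CAF replicate 3, with a mean of 10.73 for the brighter collagen genes, was above CAF replicate 2 for these markers, though replicate 2 had a collagen mean of 11.43. Macrophage markers, 11 of 12 brighter than the median gene, had means of 12.50, 9.30, 11.68, 10.67 and 9.83 on the normal and 12.38, 10.69, 10.13, 11.07 and 11.79 on the CAF arrays. Mesothelial markers (9) had means of 10.15, 6.11, 9.97, 8.67 and 9.72, and of 7.46, 9.32, 7.98, 6.96 and 8.81. Normal replicate 2, the array with the highest collagen mean, had the highest fibroblast and the lowest macrophage and mesothelial means of the normal group. The part of these markers in the collagen values was not tested.

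Other marker lists lay lower or varied less. Smooth muscle and pericyte markers (10) had means of 8.78 to 9.53 in normal cells and 9.45 to 9.89 in CAF. Epithelial markers (12) ran from 6.78 to 7.14 and from 6.51 to 6.96, endothelial markers (10) from 6.52 to 6.57 and from 6.35 to 6.54, and Schwann cell markers (6 of 8 measured) from 6.66 to 6.99 and from 6.78 to 7.01. None of the 8 marker lists held a gene called by limma, but some markers differed between the groups at an unadjusted p under 0.05. Of the smooth muscle and pericyte markers 3 were higher in CAF, Kcnj8 by 1.32 ± 0.28 without overlap (adjusted p = 0.0589), Myh11 by 1.12 ± 0.41 and Actg2 by 1.07 ± 0.35. Of the 6 measured Schwann cell markers only S100b had the higher mean in CAF, by 1.37 ± 0.26 without overlap (adjusted p = 0.0518). The other 5 had the lower mean in CAF. All 9 mesothelial markers had the lower mean in CAF, as did 57.3% of all genes. At that p 2 of them were lower (22.2%, beside 11.8% of all genes), with Lrrn4 at -2.99 ± 1.15. Also lower at that p were 4 cartilage (40.0%), 4 endothelial (40.0%) and 3 epithelial markers (25.0%), and 1 endothelial marker was higher. Of these lists 0, 1 and 2 markers were brighter than the median gene, and 18.7% of all dimmer genes were lower at that p. The fibroblast and macrophage lists had 1 lower marker each at that p. In the macrophage list it was Cx3cr1 (-0.38 ± 0.17), the only one of the 12 with the lower mean in CAF. The other 11 had the higher mean, none of them at that p, and the median difference of the list was 0.41. Over all brighter genes 39.4% had the lower mean in CAF. The part of these differences in those of the collagen genes was not tested.

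The genes that make, bind or break down collagen held 0 called genes in the 6 lists, where limma called 0.753% of all genes. Of 26 genes that fold, modify or export procollagen, 3 were higher (11.5%) and 1 was lower (3.85%) at an unadjusted p under 0.05, beside 10.5% and 11.8% of all genes, with a median difference of -0.02. The collagen chaperone Serpinh1 (Hsp47) gave -0.28 ± 0.10 (adjusted p = 0.139), Tmem38b, an ion channel of the endoplasmic reticulum, 0.55 ± 0.18 (0.122), and the export coat protein Sec23a 0.29 ± 0.11 (0.156). None of 12 propeptidases and cross-linking enzymes was at that p (median -0.04), and those nearest to it were the propeptidase Adamts3 at -0.25 ± 0.13, the lysyl oxidase Loxl1 at -0.52 ± 0.35 and the protease Tll2 at -0.11 ± 0.09. Among 11 collagen receptors, 2 were lower at that p (18.2% of the 11), beside 11.8% of all genes. Both were dim, while 6 of the 11 were brighter than the median gene, so 18.2% is no share of dim receptors. Of all dimmer genes 18.7% were lower at that p. The 2 receptors were the integrin chain Itga10 (-0.29 ± 0.07, adjusted p = 0.0687) and the platelet receptor Gp6 (-0.15 ± 0.06, adjusted p = 0.194). Itgb1, the beta chain of the collagen-binding integrins, gave 0.31 ± 0.21.

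Enzymes that cut collagen included the most positive difference of these 6 lists. Mmp13, a collagenase, ranged from 7.84 to 10.51 in normal cells and from 10.57 to 12.29 in CAF without overlap. Its difference was 1.66 ± 0.51, 3.15-fold in the means, with an adjusted p of 0.111 (unadjusted 0.00857). It was 1.20 when only the ls normal arrays were used and 1.96 when only the vs ones were. The gelatinase Mmp2 gave -0.53 ± 0.28 (adjusted p = 0.286) and the neutrophil collagenase Mmp8 1.09 ± 0.66 (0.352), and the median of the 12 enzymes was 0.02. Mmp13 was the only one of the 12 at an unadjusted p under 0.05 with a higher mean (8.33%, beside 10.5% of all genes).

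Proteins bound to fibrils (21) had a median of 0.02, and 1 was lower at an unadjusted p under 0.05 (4.76%, beside 11.8% of all genes). This was Ogn, osteoglycin, which ranged from 8.33 to 10.94 in normal cells and from 6.40 to 9.47 in CAF. The groups overlapped, and the difference was -2.05 ± 0.65 (adjusted p = 0.121). Comp, a fibril-binding protein of cartilage and tendon, gave -0.17 ± 0.09, and the tenascin Tnxb -0.27 ± 0.15. Of 23 transcription factors reported to act on collagen genes, 1 was higher at that p (4.35%, beside 10.5% of all genes), the TGF-beta mediator Smad2 (0.24 ± 0.09, adjusted p = 0.143), Ciita gave -0.12 ± 0.06, Runx1 0.38 ± 0.19, and the median was 0.06. With array weights, 3 genes of the 6 lists were called, Tmem38b, Itga10 and Mmp13, where 8.78% of all genes were.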

How the data were processed

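Total RNA of 10 cultures was measured on Affymetrix Mouse430_2 arrays, with groups and replicate numbers taken from the titles. The deposited values are log2 expression, made by the authors with RMA in Affymetrix Expression Console, and limma is also named, per the submitters' processing notes, with versions not given in the sources used here. RMA makes values relative to the other probe sets of an array and gives no detection call, so a dim value may be background.

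Of 45101 probe sets, 64 controls were left out, and 34945 of the other 45037 had 1 gene symbol, 932 had several and 9160 were unlisted. Symbols came from the platform annotation, updated to the GRCm38.p6 gene table (34741 probe sets matched). Each gene was read from its single-symbol probe set with the highest mean over the arrays. Of the 42 members, 27 had several probe sets, and in 19 of these the probe sets had the same sign.

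The groups were compared with limma 3.58.1 in R 4.3.3 (lmFit, eBayes, group as the only term) over 18193 genes, with Benjamini-Hochberg adjustment, and genes were called at an adjusted p under 0.05. Every adjusted p of a gene is from this fit unless another is named. It sets the difference of the means against the spread between 5 cultures a group, and the number of animals behind them is not given. The exact permutation test of 5 against 5 arrays cannot give a p under 0.00794.

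The members, the lists (6 of collagen-related genes, 8 of markers, 192 of 201 genes measured) and the rules were chosen with earlier results of these data known. Values on every array are given for 19 preset chains and the 12 others with the smallest p, and 3 genes with the smallest p are named in each list. The label prefix was compared as a split of unknown meaning. There were 22 alternative settings of scaling, filter, probe set, variance prior, weights, prefix, replicate block and arrays left out.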

Additional observations from a re-analysis of the deposited data

Results flagged for a closer look

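In 3 of 84 groups of 5 values, 1 array lay apart from the others of its group, by a gap of more than 0.71 of the group's range. Chance gives about 1 in 20 such groups, or 4.2 of 84. Col5a1 was low in CAF replicate 5, at 11.9, where the other CAF arrays read 12.74 to 12.99. Col18a1 was high in CAF replicate 4, at 8.95, with the other CAF arrays at 7.86 to 7.97. Col4a4, a dim gene, was high in CAF replicate 2, at 5.45. Without CAF replicate 5 or CAF replicate 4 no collagen gene was called either.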

How the results depend on the processing

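Over 22 alternative settings the number of collagen genes called was 0 in all but 2, 1 with the mean of all probe sets and 3 with array weights (Col2a1, Col8a2 and Col9a1). Between 7 and 11 collagen genes were at an unadjusted p under 0.05, and the median difference of the 42 genes lay between -0.19 and -0.05. The class medians ran from -0.39 to -0.14 for fibrillar, -0.58 to 0.03 for beaded filament, -0.13 to 0.03 for basement membrane, -0.19 to -0.06 for FACIT and -0.13 to 0.00 for other chains, and the beaded filament median was below the fibrillar one with dim genes left out, with array weights, with the prefix as a term, against the ls normal arrays and without normal replicate 1, normal replicate 3 or CAF replicate 4. The cause of the changes below was not tested.

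Over all genes, 137 were called, and 16 with median centring, 75 with dim genes left out, 235 with the probe set of highest SD, 46 with a trended robust prior, 1597 with array weights, 0 with the prefix as a term (2649 at an unadjusted p under 0.05) and 1 against only the ls normal arrays. Leaving out 1 replicate in turn gave 0 to 166. The collagen-related lists held 3 called genes with array weights and 0 otherwise. With the replicate number as a block (replicate block) no gene was called by limma (3017 at an unadjusted p under 0.05). The deviations of same-numbered cultures correlated at 0.34, -0.53, -0.48, -0.06 and -0.09, and 1 of 5 cultures in each group correlated best with its own number. So few cultures cannot settle whether the numbers pair the samples. With the block the SE fell for some collagen genes, from 0.25 to 0.16 for Col1a1 and from 0.59 to 0.31 for Col6a3. It rose for others, from 0.44 to 0.48 for Col5a3 and from 0.65 to 0.69 for Col8a1.

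Signs of some genes turned. Quantile normalisation gave 0.01 for Col5a2, -0.09 for Col6a3 and -0.06 for Col15a1, and median centring -0.06 for Col6a3 and -0.03 for Col15a1. The mean of all probe sets gave -0.18 for Col5a1 and 0.10 for Col18a1. The probe set of highest SD gave -0.35 for Col5a1, 0.26 for Col18a1, 0.14 for Col19a1 and 0.00 for Col25a1. Array weights gave -0.25 for Col6a3, -0.48 for Col15a1 and 0.13 for Col18a1. With the prefix as a term, and against the ls normal arrays only, Col5a1 was -0.02, Col6a3 -0.71, Col8a1 -0.12, Col15a1 -1.17 and Col18a1 0.12, and against the vs normal arrays only Col5a3 was 0.20. Leaving out 1 replicate in turn gave -0.15 to 0.32 for Col5a1, -0.16 to 0.06 for Col5a2, -0.25 to 0.45 for Col6a3, -0.19 to 0.62 for Col8a1, -0.44 to 0.37 for Col15a1 and -0.28 to 0.30 for Col18a1.

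Among the partner pairs, deviations from the group means gave r = 0.00 for Col4a3 and Col4a4, 0.69 for Col4a5 and Col4a6 (no longer past the threshold) and -0.68 for Col11a1 and Col11a2. The ls arrays alone gave 0.85 for Col1a1 and Col3a1 and 0.62 for Col4a5 and Col4a6 (neither past the threshold), 0.85 for Col6a1 and Col6a3 (past it) and -0.38 for Col12a1 and Col14a1. Without 2 arrays r was 0.61 for Col1a1 and Col3a1, -0.09 for Col4a3 and Col4a4, 0.18 for Col4a5 and Col4a6, 0.67 for Col5a1 and Col5a2 and -0.33 for Col6a1 and Col6a3.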
